A study of Mus musculus with 34 samples.

Results

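Focal adhesion and actin crosslinking genes were examined in J1 mouse embryonic stem cells (mESCs) grown without leukemia inhibitory factor (LIF), with or without Royalactin. The group holds 10 genes out of 23366 gene symbols in the expression table, and each was taken as the row that carries its symbol. The 10 genes are *Vcl*, *Tln1*, *Flna*, *Actn1*, *Actn4*, *Pxn*, *Tgfb1i1*, *Zyx*, *Lima1* and *Pdlim7*. They were chosen with their values in this same comparison known, so their differences are given as a description and carry no test. Each was above the filter on low values, a mean of at least 10 over the 4 libraries, which left 12993 genes to test. *Tgfb1i1* was above it only through its values without Royalactin.

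Focal adhesions are the sites where integrin receptors tie the actin cytoskeleton to the matrix under a cell. Talin and vinculin carry force from the integrins to actin, α-actinin and filamin hold actin filaments together, and LIM domain proteins such as paxillin and zyxin assemble on this scaffold. In mESCs these contacts change as flat, spread cells replace compact colonies when LIF is withdrawn.

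The RNA-seq used here compared serum/-LIF cells with serum/-LIF + Royalactin cells in 2 libraries each. It asked how Royalactin, the major protein of royal jelly, alters the transcriptome of mESCs that lack LIF. J1 is a male mESC line that needs LIF to self-renew in serum. Both groups were plated on gelatin in serum medium with no LIF, the labels give passage 40 for both, and Royalactin was added at 0.5 mg/ml. The study's figure legend for this RNA-seq gives a lower passage number than the labels. How many passages were grown without LIF or with Royalactin is thus not settled by the labels. One line was used. The labels describe growth in triplicate and the design text at least biological duplicates, but which cultures gave the 2 libraries of a group is not stated, and every p-value below measures only the spread between these libraries. The study also describes RNA-seq of serum/+LIF cells, but the labels of the series name serum/+LIF only for ATAC-seq. The ATAC-seq of the series was not analysed here.

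Expression is given as the deposited normalized count, a read count divided by a size factor of its library. Between 14737796 and 17597818 reads lay on genes per library, of which 9.08% to 46.6% were on the ribosomal RNA precursor *Rn45s*, leaving 7878527 reads elsewhere in serum/-LIF replicate 1 and 10538334 to 15999458 in the other libraries. Serum/-LIF replicate 1 also held the largest share of *Rn45s* reads. All 10 mESC markers examined were above the filter in these cells, and 5 of them (*Sox2*, *Zfp42*, *Esrrb*, *Tfcp2l1* and *Klf4*) were higher with Royalactin at a limma adjusted p under 0.05, where 0.331% of all tested genes were. *Nanog* and *Dppa5a* lay higher without passing, *Pou5f1* and *Utf1* overlapped, and *Tdgf1* stood at 10914 and 14553 in serum/-LIF and lower, at 8696 and 9728, with Royalactin, without passing. The 10 markers summed to 25362 and 31397 normalized counts in the serum/-LIF libraries and to 35820 and 42564 in the Royalactin libraries. Of 13 fibroblast markers, 3 were above the filter, 0 had a limma adjusted p under 0.05 and 1 had an unadjusted p under 0.05, *Dcn*, at 37.4 and 31.1 in serum/-LIF and at 0 in both Royalactin libraries. *Dcn* was above the filter only through serum/-LIF. The other 2 overlapped. *Pdgfra* stood at 52.2 and 0 in serum/-LIF and at 42.2 and 32.4 with Royalactin. *Thy1* stood at 41.5 and 33.1 without and at 45.3 and 29.6 with Royalactin. The 13 markers summed to 95.2 to 164 without and 70.2 to 97.6 with Royalactin. *Pdgfrb*, *Postn*, *Fap*, *Prrx1* and *S100a4* were at 0 in every library. The rest were below the filter and are given as serum/-LIF replicates 1 and 2, then Royalactin replicates 1 and 2. *Col1a1* stood at 12.0, 11.4, 0 and 4.13 and *Col3a1* at 21.4, 6.21, 0 and 3.44. *Col1a2* stood at 0, 1.04, 10.1 and 0. *Lum* stood at 0, 11.4, 0 and 0, and *Twist2* at 0, 1.04, 0 and 0.688. The part of either marker list in the values below was not tested. In bulk libraries, fewer cells of a type and less RNA per cell cannot be told apart.

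One library stood out for these genes. Serum/-LIF replicate 1 was the highest of the 4 libraries for 9 of the 10 genes, where 24.5% of all tested genes were highest in that library. The 10 genes were chosen with their values in both groups known. That choice can favour a serum/-LIF library as the highest, so this share is given as a description only. Within serum/-LIF, replicate 1 was above replicate 2 for 10 of 10 genes, with a median log2 difference of 0.92 against 0.03 over all tested genes. Within serum/-LIF + Royalactin, replicate 1 was above replicate 2 for 7 of 10, with a median of 0.24 against 0 over all genes. The spread ran in serum/-LIF from 0.28 for *Lima1*, 0.40 for *Vcl* and 0.43 for *Pdlim7* to 2.00 for *Pxn* on the log2 scale. Exons of the 10 genes had a median GC content of 54.3% and a median length of 5.13 kb, against 49.8% and 3.75 kb over the tested genes. After each library was corrected for GC content and length, the median gap between the serum/-LIF replicates was 0.42 for these genes, with 8 of 10 above 0. The part of *Rn45s* share, GC content and length in this gap was not tested further. Across all tested genes, log2 values of the serum/-LIF replicates correlated at 0.876 and those of the Royalactin replicates at 0.929 (Pearson). Serum/-LIF replicate 1 correlated with the Royalactin libraries at 0.890 and 0.902, and serum/-LIF replicate 2 at 0.844 and 0.872. Over all genes, replicate 2 was thus the serum/-LIF library less like the Royalactin libraries.

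**Figure D1:**
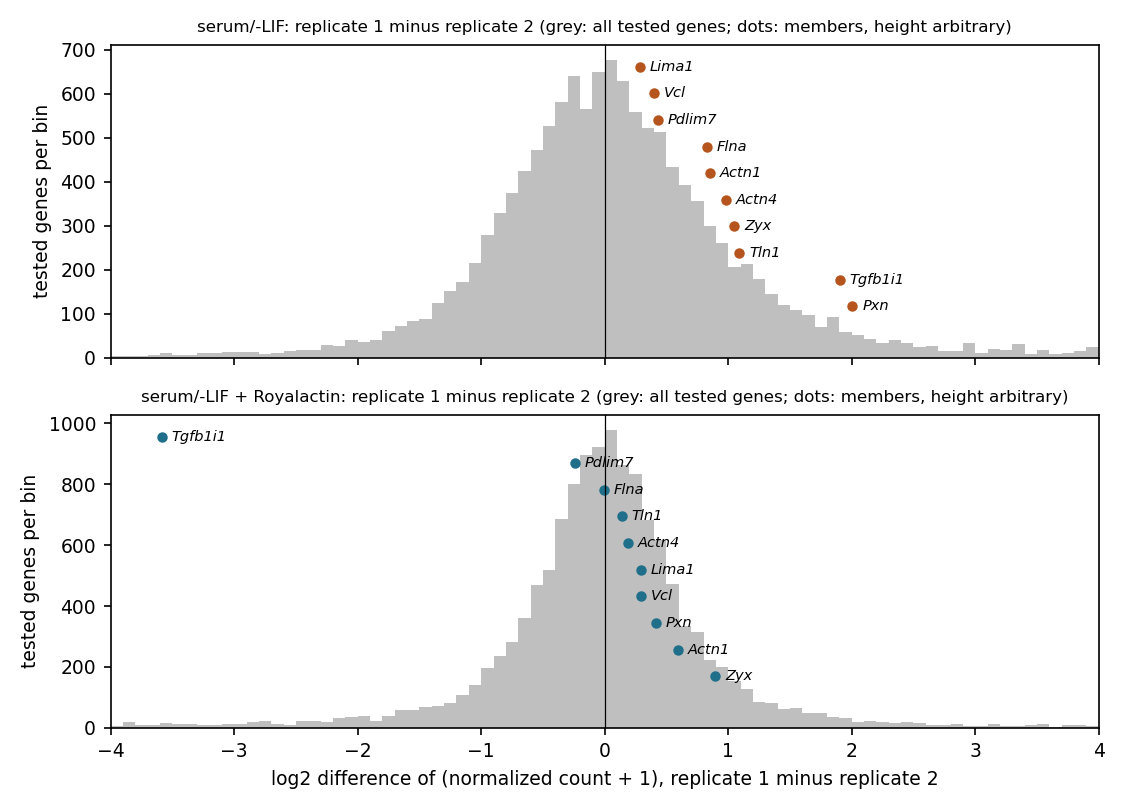
Replicate 1 minus replicate 2 in log2(normalized count + 1) for serum/-LIF (top) and serum/-LIF + Royalactin (bottom). Grey bars count tested genes and labelled dots are the 10 genes, at an arbitrary height. In serum/-LIF all 10 dots lie right of 0, from 0.28 to 2.00, and in Royalactin they lie on both sides.

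Both Royalactin libraries were below both serum/-LIF libraries for 4 genes (*Vcl*, *Tgfb1i1*, *Zyx* and *Pdlim7*), and 1 gene, *Lima1*, was higher in both. The other 5, *Tln1*, *Flna*, *Actn1*, *Actn4* and *Pxn*, had groups that overlapped. Over all tested genes, 38.6% had groups that did not overlap, 18.9% lower with Royalactin and 19.7% higher. Their median log2 difference, Royalactin minus serum/-LIF, was -0.32 against -0.01 for all tested genes. It rested on which serum/-LIF library was used, at 0.16 without replicate 1 and -0.80 without replicate 2. Of the 10, 1 (*Lima1*) had a limma adjusted p under 0.05, where 0.493% of the tested genes did (0.331% higher and 0.162% lower). *Lima1* passed in 5 of 14 alternative settings and in none of those that left out a library, rescaled the libraries, dropped the trend in the variance, used a pseudocount of 0.1 or kept every gene above 0. With the GC and length correction *Vcl* and *Pdlim7* also passed, and *Zyx* and *Pdlim7* did when replicate numbers were blocked. After that correction *Tln1* and *Flna* also lay lower without overlap, so that 6 of the 10 genes did. The median log2 difference was then -0.42. The share of all tested genes without overlap after the correction is not given. Because the genes were chosen on this comparison, nothing is read from these counts.

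**Figure D2:**
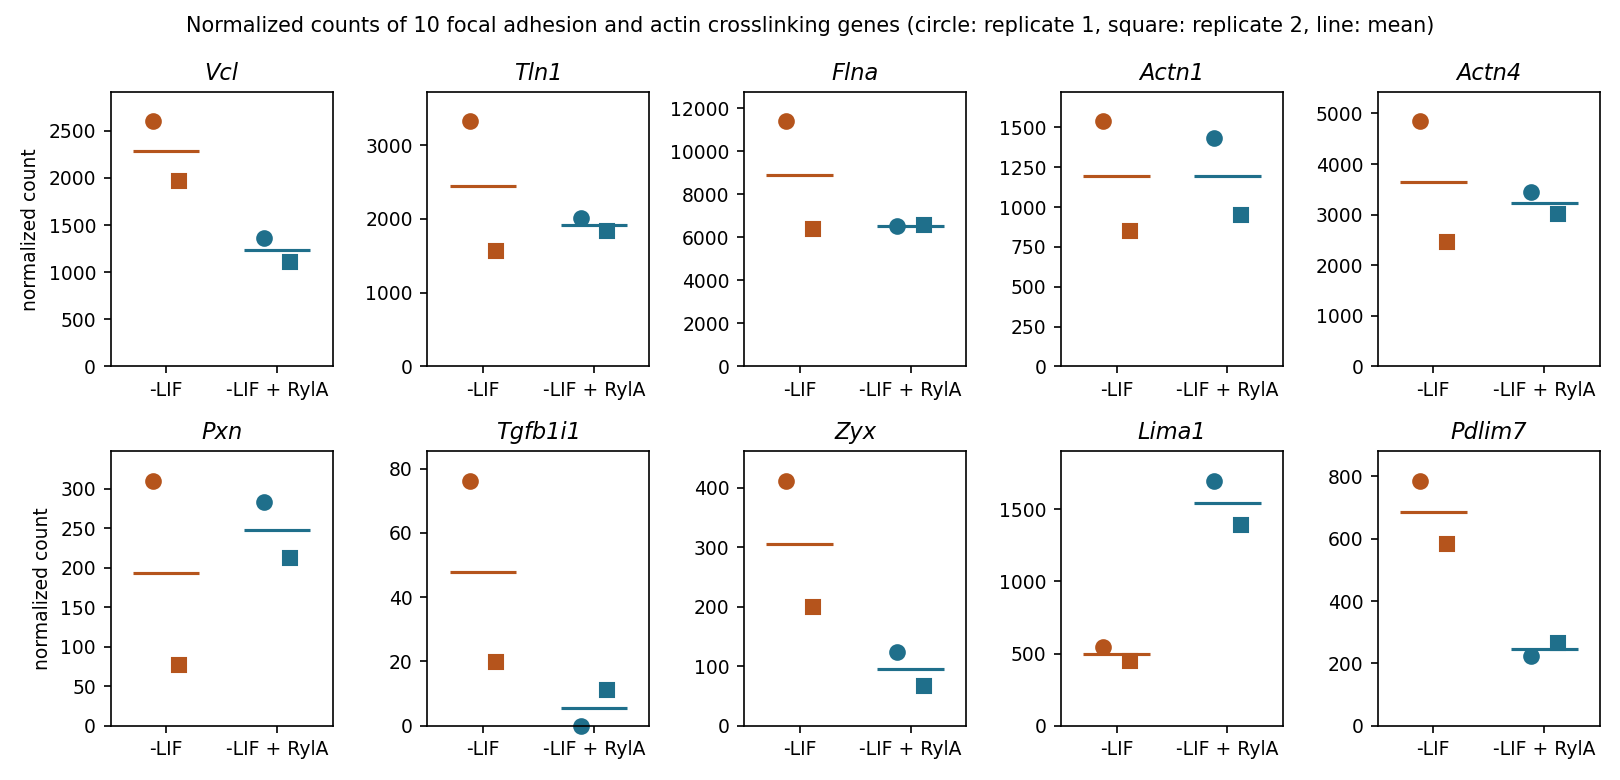
Normalized counts of the 10 genes in the 4 libraries, on a linear axis from 0 (-LIF, serum/-LIF; -LIF + RylA, serum/-LIF + Royalactin; circles replicate 1, squares replicate 2, lines group means). *Vcl*, *Tgfb1i1*, *Zyx* and *Pdlim7* lie lower and *Lima1* higher in both Royalactin libraries, and the circle of serum/-LIF is the highest point in 9 of the 10 panels.

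*Vcl* encodes vinculin, which binds talin and actin and strengthens the adhesion under force. Replicates 1 and 2 had normalized counts of 2600 and 1971 in serum/-LIF, and of 1362 and 1111 with Royalactin. The 2 groups did not overlap, with means of 2285 ± 445 and 1236 ± 177 (SD, n = 2 each), a 1.85-fold lower mean with Royalactin. On the log2(normalized count + 1) scale, used for every difference here, this was -0.88 (SE 0.30). With each library left out in turn and under the other settings tried, the difference stayed between -1.08 and -0.68. *Vcl* lies at chr14:21748655-21852895 on the plus strand (mm9), and 39.9% of its exon bases (2087) overlap exons of *Ap3m1*, a subunit of an adaptor complex for vesicle transport, on the opposite strand. *Ap3m1* stood at 1270, 1319, 1233 and 1184, a log2 difference of -0.10, in the same order of libraries. Whether the counting used strand is not given in the sources used here, so reads in that stretch cannot be assigned to one gene.

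*Tln1* encodes talin 1, which links the integrin β tail to actin and switches integrins on. It stood at 3321 and 1562 in serum/-LIF and at 2013 and 1830 with Royalactin. Both Royalactin libraries lay between the serum/-LIF libraries, and the log2 difference was -0.25 (SE 0.35). Without serum/-LIF replicate 1 it was 0.30 and without replicate 2 it was -0.79, so the sign followed the library. Of its exon bases, 3.67% overlap *Creb3* on the other strand.

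Among the actin crosslinkers, *Flna* was the most abundant of the 10 genes. It encodes filamin A, which joins actin filaments into networks and binds integrin tails. Its normalized counts were 11398 and 6412 in serum/-LIF and 6531 and 6561 with Royalactin. The Royalactin libraries differed from each other by far less (SD 21.5) than the serum/-LIF libraries (SD 3526), and serum/-LIF replicate 1 stood above the other 3. The log2 difference was -0.39 (SE 0.34), and 0.03 without that library.

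The α-actinins *Actn1* and *Actn4* encode antiparallel dimers that bundle actin at adhesions and along stress fibres. *Actn1* stood at 1538 and 850 without and at 1435 and 953 with Royalactin. The group means were the same to the nearest count, 1194 ± 487 and 1194 ± 341, with a log2 difference of 0.03 (SE 0.35). *Actn4* stood at 4842 and 2452 in serum/-LIF and at 3443 and 3017 with Royalactin, a log2 difference of -0.10 (SE 0.34). Its Royalactin libraries lay within the range of the serum/-LIF libraries. The interval of one SE on either side covered 0 for both. Without serum/-LIF replicate 1, *Actn1* was at 0.46 and *Actn4* at 0.39, and without replicate 2 they were at -0.39 and -0.59.

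*Pxn* and *Tgfb1i1* are paralogs. *Pxn* encodes paxillin, a scaffold for adhesion kinases, and *Tgfb1i1* encodes Hic-5, a LIM protein of adhesions that also acts as a nuclear coregulator. *Pxn* stood at 310 and 76.6 in serum/-LIF and at 284 and 213 with Royalactin. Of the 10 genes, *Pxn* had the widest gap between the serum/-LIF replicates, both Royalactin libraries lay inside it, and the log2 difference of 0.67 (SE 0.58) became 1.67 without replicate 1 and -0.34 without replicate 2. *Tgfb1i1* stood at 76.2 and 19.7 in serum/-LIF, which are 57 and 19 reads, and at 0 and 11.0 with Royalactin, which are 0 and 16 reads. Both Royalactin libraries were lower, with 19 and 16 reads in the nearest pair of libraries. A count of 0 allows up to 3 reads, which are worth 3.02 normalized counts in Royalactin replicate 1, with only counting error considered. The log2 difference of -3.53 (SE 1.62) depends on the added 1, and it ran from -5.32 to -1.73 over the other settings.

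*Zyx* encodes zyxin, which gathers at adhesions and stress fibres under tension and recruits actin assembly factors. It stood at 412 and 199 in serum/-LIF and at 124 and 66.1 with Royalactin. The groups did not overlap, with means of 305 ± 151 and 94.9 ± 40.8, a 3.22-fold lower mean with Royalactin. The log2 difference was -1.65 (SE 0.52) and stayed between -2.17 and -1.13 over the settings tried. *Epha1*, an ephrin receptor gene on the other strand whose exons cover 4.28% of the *Zyx* exon bases, stood at 345, 277, 148 and 107 in the same order of libraries, also with no overlap.

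*Pdlim7* encodes Enigma, a PDZ and LIM domain protein that sits on actin through tropomyosin and α-actinin. It stood at 786 and 583 in serum/-LIF and at 224 and 266 with Royalactin. The gap between the groups was wider than either replicate gap, with means of 685 ± 144 and 245 ± 29.3, a 2.79-fold lower mean with Royalactin. The log2 difference was -1.47 (SE 0.36), between -1.68 and -1.25 over the settings tried.

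*Lima1* encodes EPLIN, which bundles actin filaments, slows their turnover and ties actin to cadherin junctions. It stood at 547 and 449 in serum/-LIF and at 1699 and 1388 with Royalactin. *Lima1* was the only one of the 10 genes with both Royalactin libraries higher, at 1544 ± 220 against 498 ± 69.1, a 3.10-fold higher mean. The log2 difference was 1.63 (SE 0.31) and ranged from 1.48 to 1.77 over the settings tried, and the gap between the serum/-LIF replicates, 0.28, was the smallest of the 10 genes.

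**Figure D3:**
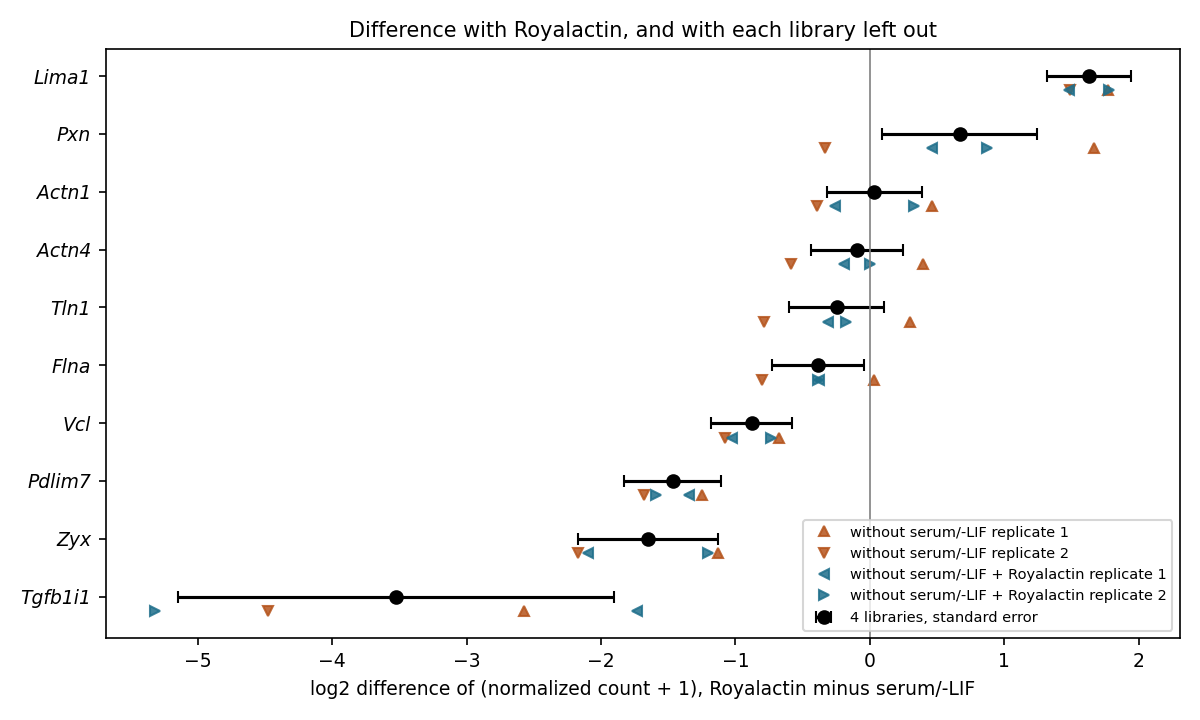
Log2 difference of (normalized count + 1), Royalactin minus serum/-LIF, for the 10 genes (black dots with standard errors) and with each library left out (triangles). *Lima1*, *Vcl*, *Pdlim7*, *Zyx* and *Tgfb1i1* stay on one side of 0, and the other 5 cross it when a serum/-LIF library is left out, *Actn1* also without Royalactin replicate 1.

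To compare levels between genes, normalized counts were divided by the length of the merged exons in kb. In serum/-LIF the level per kb ran from 947 for *Flna*, 726 for *Actn4* and 437 for *Vcl* through 314 for *Actn1*, 249 for *Tln1* and 141 for *Pdlim7* to 81.6 for *Zyx*, 69.5 for *Lima1*, 23.6 for *Pxn* and 10.3 for *Tgfb1i1*. Only *Pdlim7* with *Zyx* and *Lima1* with *Pxn* were neighbours whose replicates did not overlap. With Royalactin the level per kb was 696 for *Flna*, 643 for *Actn4*, 314 for *Actn1*, 236 for *Vcl*, 215 for *Lima1* and 196 for *Tln1*, then 50.5 for *Pdlim7*, 30.3 for *Pxn*, 25.4 for *Zyx* and 1.18 for *Tgfb1i1*. Here neighbours overlapped from *Actn1* to *Tln1*, as did *Pxn* and *Zyx*, and the others stood apart. *Lima1* stood 8th of the 10 levels in serum/-LIF and 5th with Royalactin, beside *Vcl* and *Tln1*. The lengths cover all annotated transcripts, so genes with unused exons are placed too low.

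Promoter windows of the genes were searched for motifs as a description, with no test. RefSeq windows on GRCm38.p6, from 250 bases before to 50 after a start, were at hand for 8 of the 10 genes, 1 start each, and *Pxn* and *Tgfb1i1* had none. The CArG box, the element bound by serum response factor, was found in 2 of the 8 windows, those of *Vcl* and *Lima1*, and in 1.63% of 32851 windows of the same length. Both held the same 10 bases, CCTTATAAGG, which were in 0.0426% (14) of all windows. They lay 5′ of the start, at -227 in *Vcl* and at -47 in *Lima1*. These are the upstream 250 bases of the gene that was lower and the gene that was higher with Royalactin, at chr14:20929148-20929397 on the plus strand and chr15:99820150-99820399 on the minus strand, written 5′ to 3′ with capitals for the CArG box and, in *Vcl*, for GGAATG, the TEAD motif:
Vcl: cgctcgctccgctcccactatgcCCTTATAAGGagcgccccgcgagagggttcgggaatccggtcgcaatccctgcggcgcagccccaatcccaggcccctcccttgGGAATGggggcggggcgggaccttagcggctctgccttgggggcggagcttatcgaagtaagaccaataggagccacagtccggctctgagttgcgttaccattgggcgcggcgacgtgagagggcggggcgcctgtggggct
Lima1: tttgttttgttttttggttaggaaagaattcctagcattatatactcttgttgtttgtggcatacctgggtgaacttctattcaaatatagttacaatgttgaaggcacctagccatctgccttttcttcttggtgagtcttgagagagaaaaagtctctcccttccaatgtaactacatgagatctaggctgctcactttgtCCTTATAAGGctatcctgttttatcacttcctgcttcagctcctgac
The *Vcl* bases were 67.2% G and C and the *Lima1* bases 39.2%, where the other 6 windows ran from 55.6% to 68.4%. The *Lima1* window matches mm9 once, 55279 bases downstream of the first coding start of the gene, so it belongs to an internal start, and counts per gene cannot separate the starts. The *Flna* and *Pdlim7* windows also belong to later annotated starts, 3286 and 230 bases downstream of the first coding start.

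Motifs were searched on both strands, and matches to different motifs did not overlap, while a pair of GGGCGG matches in *Vcl* shared a base. TGANTCA, the AP-1 motif, was found in *Zyx* and *Actn4* and in 7.81% of all windows. These stretches show it in capitals in a gene that was lower with Royalactin and one whose groups overlapped, at chr6:42349677-42349743 on the plus strand and chr7:28962465-28962531 on the minus strand:
Zyx: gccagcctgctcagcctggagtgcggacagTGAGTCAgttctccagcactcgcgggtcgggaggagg
Actn4: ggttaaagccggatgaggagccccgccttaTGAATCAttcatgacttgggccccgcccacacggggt
GGAATG was found in *Vcl*, *Flna* and *Actn4*, 3 of the 8 windows, and in 14.7% of all windows. GGGCGG, the SP1 motif, was found in 6 of the 8 (all but *Tln1* and *Lima1*) and in 35.7% of all windows. TATAAA was in 0 of the 8 and in 13.6% of all windows, and the *Tln1* window held none of the motifs. The CArG box was thus in a gene with lower and a gene with higher values, and the other motifs found were in genes with lower or overlapping values. A match is a run of letters in these windows and shows no binding. Across the 149 tested genes with a CArG box, which were counted after its place in *Vcl* and *Lima1* was seen, 31.5% (47) lay lower with Royalactin without overlap and 14.8% (22) higher, against 18.9% and 19.7% of all tested genes. *Vcl* and *Lima1* are themselves counted here, *Vcl* among the 47 and *Lima1* among the 22. Of the 149, the 1 that was called was *Lima1* itself, higher, so this call adds nothing to the one above. The median log2 difference of the 149 was -0.15 against -0.01 for all tested genes. No test was made of these shares.

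Relatives of the 10 genes were then examined. Of 20 relatives, 18 were above the filter (all but *Lpxn* and *Ctnna3*), and 0 had a limma adjusted p under 0.05, while 6 had an unadjusted p under 0.05. Of the 18, 8 lay lower and 2 higher without overlap, and their median log2 difference was -0.22. Over all 12993 tested genes, 1214 had an unadjusted p under 0.05 by limma, and 18.9% lay lower and 19.7% higher without overlap. The same values stand beside the counts of the lists below. These lists, too, were chosen with earlier results of these data known, so their counts are a description. The filamin *Flnc* gave a log2 difference of -0.77 (adjusted p = 0.626 by limma). It stood at 698 and 322 in serum/-LIF and at 242 and 319 with Royalactin, lower in both, with serum/-LIF replicate 2 close to Royalactin replicate 2. *Tln2*, the second talin, was at 0.46 with overlapping groups.

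The muscle α-actinins gave opposite signs, at -0.62 for *Actn2*, which had at most 68.2 normalized counts, and 1.39 for *Actn3* (adjusted p = 0.152 by limma). *Actn3* stood at 213 and 205 in serum/-LIF and at 516 and 580 with Royalactin, so both Royalactin libraries were higher. Of the zyxin family, *Lpp* (-1.36) and *Trip6* (-0.75) lay lower without overlap, as *Zyx* did, and *Ajuba* (-0.34), *Limd1* (-0.11) and *Wtip* (0.30) overlapped. *Lpp* stood at 1345 and 991 in serum/-LIF and at 632 and 320 with Royalactin (adjusted p = 0.181 by limma).

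The PDZ and LIM domain relatives of *Pdlim7* were split. *Pdlim2* (-3.23), *Pdlim3* (-2.01) and *Pdlim4* (-1.19) lay lower without overlap, *Pdlim1* (0.89) lay higher, and *Pdlim5* (0.13) and *Ldb3* (0.78) overlapped. *Pdlim3* stood at 128 and 186 in serum/-LIF and at 54.3 and 26.2 with Royalactin. *Pdlim2* had at most 60.0 normalized counts and 0.69, or 1 read, in Royalactin replicate 2, so its difference depends on the added 1. With a mean of 54.1 in serum/-LIF and 9.90 with Royalactin, *Pdlim2* was above the filter only through serum/-LIF. The α-catenins, which share domains with vinculin, gave -0.01 for *Ctnna1* and 0.69 for *Ctnna2*, a gene with 2.67 to 29.2 normalized counts. *Ctnna1* stood at 4291, 4147, 4292 and 4116 in the same order of libraries, with no group apart.

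Ratios within a library leave out its scaling, and *Vcl*, *Tln1*, *Zyx*, *Pdlim7* and the α-actinins were each set against the relative of their family with the highest mean. *Vcl* against *Ctnna1* gave ratios of 0.606 and 0.475 in serum/-LIF and of 0.317 and 0.270 with Royalactin. *Tln1* against *Tln2* gave 3.95 and 3.52 in serum/-LIF and 2.17 and 2.41 with Royalactin. The *Tln1* to *Tln2* ratio thus stood apart between the groups although *Tln1* itself overlapped. The ratios of *Zyx* to *Ajuba* were 0.142 and 0.126 against 0.0826 and 0.0347, and those of *Pdlim7* to *Pdlim5* were 1.49 and 0.929 against 0.347 and 0.431. *Actn1* to *Actn3* gave 7.23 and 4.15 against 2.78 and 1.64, and *Actn4* to *Actn3* 22.8 and 12.0 against 6.67 and 5.21. Between the groups *Actn3* differed by more than *Actn1* or *Actn4* did. A ratio shows unequal values of its 2 genes and does not say which one moved.

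Among 38 other adaptors and kinases of focal adhesions, 35 were above the filter and 1, *Tns3*, rose at a limma adjusted p under 0.05, while 0 fell. Unadjusted, 11 had a p under 0.05, and 12 lay lower and 7 higher without overlap, with a median log2 difference of -0.08. *Tns3*, a tensin that couples integrin tails to actin, stood at 670 and 476 in serum/-LIF and at 2493 and 1924 with Royalactin. Its log2 difference was 1.95 (SE 0.32, adjusted p = 0.0141 by limma), and the call was lost without the trend in the variance (adjusted p = 0.325 by limma) and without 3 of the 4 libraries in turn (adjusted p of 0.0484 to 0.662 by limma over the 4). Of the genes that did not pass, *Tns2* (1.99, at most 56.3 normalized counts) and *Fblim1* (1.42), which brings filamin to adhesions, had the largest positive differences. *Fermt1* (-2.53), *Fermt3* (-1.75) and *Parva* (-1.57) had the largest negative ones. *Fermt3* had at most 28.1 normalized counts (SE 1.69) and was above the filter only through serum/-LIF. *Fermt1*, a kindlin that works beside talin on integrins, stood at 226 and 300 in serum/-LIF and at 41.2 and 47.5 with Royalactin (adjusted p = 0.0596 by limma).

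Of 29 other actin crosslinkers and bundlers, 28 were above the filter, 0 passed at a limma adjusted p under 0.05 and 4 had an unadjusted p under 0.05. In this list 9 lay lower and 7 higher without overlap, and the median log2 difference was 0.02. The largest positive differences were those of *Palld* (1.16), *Svil* (0.78) and *Eps8* (0.58), and the largest negative those of *Cnn2* (-1.24), *Vil1* (-1.19) and *Lcp1* (-1.12). *Vil1* had at most 27.9 normalized counts (SE 1.24) and *Lcp1* at most 33.4 (SE 1.13). *Cnn2*, a calponin that stabilises actin filaments, stood at 1228 and 1085 in serum/-LIF and at 460 and 516 with Royalactin (adjusted p = 0.136 by limma). *Palld*, a partner of α-actinin, stood at 199 and 79.7 without and at 243 and 331 with Royalactin.

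Of 11 integrin subunits found in focal adhesions, 8 were above the filter, 0 passed at a limma adjusted p under 0.05 and 2 had an unadjusted p under 0.05. Here 4 lay lower and 1 higher without overlap, and the median log2 difference was -0.40. *Itga3* (-1.58), a laminin receptor subunit, stood at 1204 and 773 in serum/-LIF and at 331 and 315 with Royalactin (adjusted p = 0.0787 by limma). *Itgb1* (-0.84), the β subunit shared by most of these receptors and the one whose tail talin binds, stood at 5383 and 6855 without and at 3552 and 3224 with Royalactin. *Itgb8* was at -0.89 with at most 34.2 normalized counts, and *Itgb5* (0.50) and *Itga6* (0.03) were the only positive differences.

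**Figure D4:**
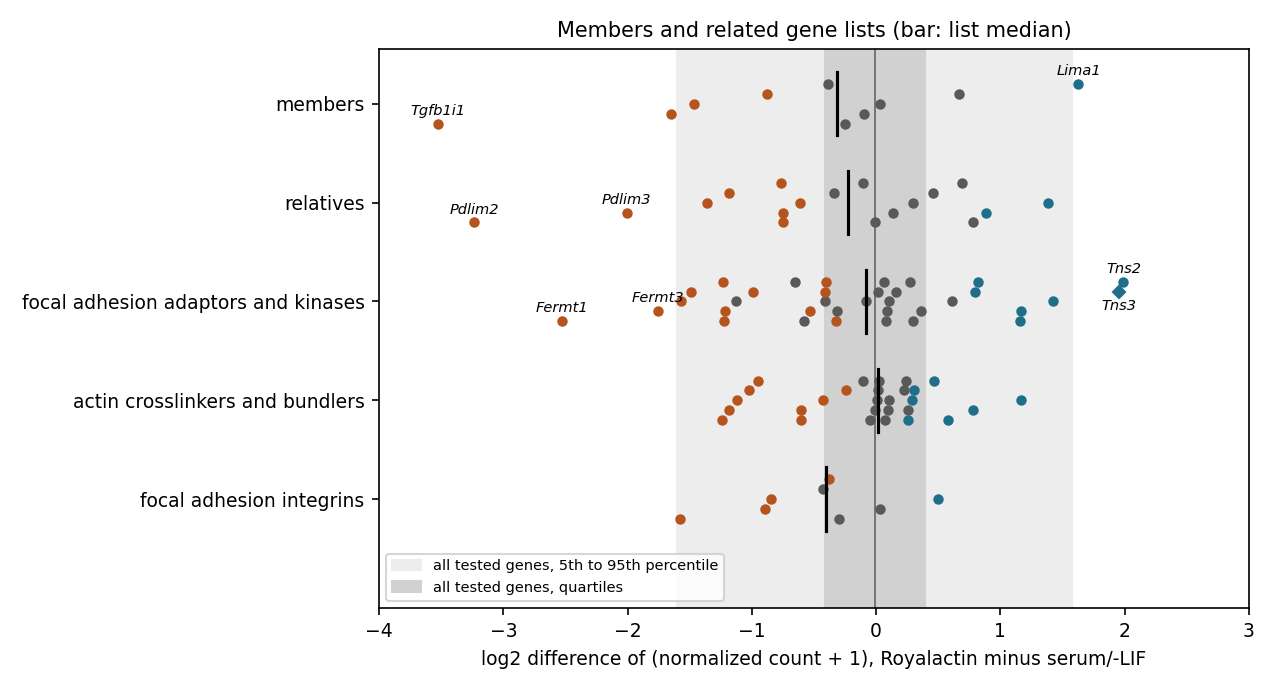
Log2 difference of (normalized count + 1), Royalactin minus serum/-LIF, for the 10 genes (members), their relatives and 3 lists of focal adhesion genes, with list medians of -0.32, -0.22, -0.08, 0.02 and -0.40 as bars. Orange and blue points are genes whose groups do not overlap, lower and higher with Royalactin, grey points overlap, the diamond is *Tns3*, the one listed gene outside the 10 with a limma adjusted p under 0.05, and shading gives quartiles and 5th to 95th percentiles of all tested genes.

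Other genes with a like profile over the 4 libraries were sought by the distance between their log2 values, centred on the mean of the 4, and the mean profile of the 10 genes. That profile was 0.79 and -0.19 in serum/-LIF and -0.35 and -0.24 with Royalactin, so it mainly traces serum/-LIF replicate 1. The nearest tested genes were *Homer2* (distance 0.0528), *Fam171a1* (0.0639), *Gas7* (0.0864), *Rab19* (0.0914) and *Rtn4rl1* (0.0937). *Homer2*, a scaffold protein gene, stood at 340 and 180 in serum/-LIF and at 156 and 168 with Royalactin, with all 3 lower libraries close together.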

How the data were processed

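RNA-seq of serum/-LIF (2 libraries) and serum/-LIF + Royalactin (2 libraries) was used, with groups and replicate numbers from the sample labels. The authors depleted ribosomal RNA, aligned reads to mm9 with TopHat, assigned them to genes with HTSeq-count and deposited DESeq-normalized counts, a signal proportional to reads. The submitters' processing notes name TopHat, DESeq, Bowtie and mm9. Whether counting used strand, and its annotation, are not given in the sources used here. All values were whole multiples of 1 step per library within 0.01 of a read. The step of Royalactin replicate 1, 1.01, was too near 1 for an automatic check of whole reads, so no count model was run, and reads are values divided by the step.

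The 10 genes and the gene lists were chosen with earlier results of these data known. Differences were tested with limma 3.58.1 in R 4.3.3 (trend in the variance, two-sided, Benjamini-Hochberg) on log2(normalized count + 1) for genes with a mean of at least 10. This scale understates changes of low genes. The genes named are the 10, their relatives above the filter, and of each other list those with an adjusted p under 0.05 and the 3 largest differences in each direction. The 5 nearest profiles and markers were also named. Genes chosen after their values were seen are those that share exon bases with one of the 10, and the fibroblast markers below the filter. The ratios to relatives and the counts of genes with a CArG box were also chosen then.

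Positions, exon lengths and GC content came from the GENCODE annotation of mm9, which held 98.0% of the tested genes. The correction for GC content and length subtracted a lowess curve (span 0.3) of each library's deviation. Of 75-base tiles of the exons of the 10 genes, 0 had a second match in mm9 with at most 2 mismatches. Promoter windows came from RefSeq. One relative is not reported here by name. Protein sequences were not used here. Alternatives were pseudocounts of 0.1 and 5, filters, scalings, the replicate block, the correction, limma without the trend and each library left out. Of these steps, only the main limma fit was run on simulated counts. The simulation used the same dispersion for all genes and no shift particular to a library, and its outcome is not given here.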

Additional observations from a re-analysis of the deposited data

How the results depend on the processing

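Of the 10 genes, *Vcl*, *Tgfb1i1*, *Zyx* and *Pdlim7* had a lower and *Lima1* a higher value with Royalactin under each of the 14 alternatives that could be computed (13 for *Tgfb1i1*, which had a mean under 50). The sign differed in 4 alternatives for *Actn1* and in 1 each for *Tln1*, *Flna*, *Actn4* and *Pxn*. The median log2 difference of the 10 genes was -0.80 to 0.16 with each library left out, and the number lower without overlap was 4 to 9. With 1 library left in a group non-overlap is easier to reach. With the GC and length correction, the number lower without overlap was 6 and the median log2 difference -0.42. No share over all tested genes is given for any of these settings, so nothing is read from these counts.

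Counts of called genes depended on the setting. Over all genes tested, 64 were called, against 32 with a pseudocount of 0.1, 34 with every gene above 0, 99 with a mean of at least 50, 248 with the GC and length correction, 0 with limma without the trend (1214 had an unadjusted p under 0.05 with it), and 0 to 60 with each library left out. Among adaptors and kinases 1 was called, against 2 (pseudocount 5), 3 (mean of at least 50), 6 (GC and length correction), 0 (no trend) and 0 to 1 (a library left out). For integrins the count of 0 became 1 (pseudocount 5), 1 (mean of at least 50), 2 (GC and length correction) and 0 to 1 (a library left out). With the GC and length correction 1 crosslinker or bundler and 3 relatives were called. The cause was not tested.

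The replicate numbers are shared between the groups, and the labels do not say that same-numbered libraries were paired. Deviations of same-numbered libraries correlated at 0.0851 across genes. With 2 pairs only, this cannot show whether they were paired, and the main fit used no block. With the replicate block 391 genes were called, with 7 adaptors and kinases, 1 crosslinker or bundler, 2 relatives and 1 integrin. With both the replicate block and this correction, 798 genes were called, with 8, 4, 5 and 2 in the same lists.

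With 7878527 reads off *Rn45s* in serum/-LIF replicate 1, depth limits low genes such as *Tgfb1i1*.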
